A study of Caenorhabditis elegans with 2 samples.

Results

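In the worm Caenorhabditis elegans, ATTF-6 belongs to the AT-hook proteins, and the study mapped a tagged form of it by ChIP-seq. The subject here is the set of ATTF-6 summits at the transcript starts of protein-coding genes on the autosomes, away from the dense piRNA cluster near the right end of chromosome IV. A summit, the point of highest signal in a bound region, was a member if it lay on chromosomes I to V, outside the stretch of IV from 13.5 to 17.25 Mb, within 200 bp of an annotated start of a protein-coding transcript, and with no tRNA, snRNA or snoRNA gene start within 500 bp. The rule found 258 members among the 2134 summits of the joint conservative list, or 12.1%. The rule itself used positions only, but the list it was applied to holds regions that ranked alike in both replicates, and the set was proposed with earlier results of these data known.

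All worms carried a CRISPR insertion on chromosome I that joins TY1, EGFP and a triple FLAG tag to attf-6 (strain RW12231). They had been synchronised by bleaching and starvation as first-stage larvae, and were taken whole as young adults at 64 hours, so germline and somatic nuclei were not separated. Chromatin was sonicated to fragments of 200 to 800 bp and precipitated with an anti-GFP antibody. The 2 samples are biological replicates 1 and 2 of this 1 group. With 2 replicates an exact two-sided permutation test cannot give a p below 0.5, so the values below are descriptions without a test of the joint list, and for the main ones of each replicate's own list as well. The labelled control was not analysed here, so no value is set against input or untagged chromatin.

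AT-hooks are short peptide motifs that bind the minor groove of DNA, with a preference for runs of A and T. The compact genome of C. elegans places many genes close together: some pairs start head to head and share 1 stretch of upstream DNA (divergent promoters), and others follow each other on the same strand. Same-strand genes that lie close together are often transcribed as an operon, and the downstream gene then receives a spliced leader by trans-splicing, so an annotated start may be a splice site and not the point where transcription begins. No list of operons or trans-splice sites was used to tell these apart, and a start below always means the annotated one.

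A pair of arrangements of neighbouring genes held most of the members. A member was divergent if any start within 200 bp of it faced a start of the opposite strand within 1000 bp upstream. An overlap of the facing starts by up to 200 bp was allowed. Divergent members numbered 80, or 31.0% (Wilson 95% interval 25.7 to 36.9, which covers counting error only). Such promoters make up 16.5% of all the bases that a member could occupy. The other 178 members were single, and 119 of these had the end of another gene of the same strand within 500 bp upstream of the start (tandem, 66.9% of single members, against 25% of the single genes that could have had a summit). Only 59 members stood at a start with neither arrangement. The tandem class was defined after the data had been seen.

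The sequences below are those of the 4 strongest divergent and the 4 strongest single members on chromosomes II to V, and they show the base composition to which the results return. Each runs 5′ to 3′ in the direction of the member's gene, is taken from the RefSeq genome of build WBcel235 (the assembly that the deposited lists call ce11), and is cut to the DNA upstream of the start or between the starts that no annotated exon covers. Capitals mark, on either strand, the 5 six-letter words that were most over-represented at member summits (ACGCGC and GCGCCA, with GCGCAC and CGCGCC, and also CGCGAA) and the word GCGCGC. The divergent stretches are those between Y17G9B.5 and rpl-20 (chrIV:4750010-4750150 on the plus strand), between Y55F3AR.2 and cct-8 (chrIV:1094290-1094430 on the plus strand), between rpl-12 and lin-54 (chrIV:13240652-13240763 on the minus strand), and between drr-2 and set-16 (chrIII:13643655-13643795 on the minus strand). The single stretches lie upstream of efl-1 (chrV:16965786-16965926 on the minus strand), Y39B6A.43 (chrV:18967830-18967904 on the minus strand), cdc-48.1 (chrII:10563505-10563645 on the minus strand) and tag-115 (chrIV:13239514-13239586 on the minus strand). The summit is base 71 of the run, except for Y39B6A.43, where it is base 59, and tag-115, where it is base 3.
Y17G9B.5 and rpl-20: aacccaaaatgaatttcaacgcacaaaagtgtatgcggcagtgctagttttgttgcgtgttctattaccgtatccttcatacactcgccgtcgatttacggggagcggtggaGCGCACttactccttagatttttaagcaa
Y55F3AR.2 and cct-8: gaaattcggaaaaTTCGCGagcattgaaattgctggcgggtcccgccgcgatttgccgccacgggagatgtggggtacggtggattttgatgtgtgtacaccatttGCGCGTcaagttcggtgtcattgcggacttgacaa
rpl-12 and lin-54: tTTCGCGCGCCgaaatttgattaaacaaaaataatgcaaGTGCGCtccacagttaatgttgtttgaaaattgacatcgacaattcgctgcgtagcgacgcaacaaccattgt
drr-2 and set-16: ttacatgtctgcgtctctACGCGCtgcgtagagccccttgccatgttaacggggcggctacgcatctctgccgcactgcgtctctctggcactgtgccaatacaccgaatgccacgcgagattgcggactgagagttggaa
efl-1: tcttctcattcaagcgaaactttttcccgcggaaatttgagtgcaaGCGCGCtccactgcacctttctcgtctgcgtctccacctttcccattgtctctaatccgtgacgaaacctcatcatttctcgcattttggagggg
Y39B6A.43: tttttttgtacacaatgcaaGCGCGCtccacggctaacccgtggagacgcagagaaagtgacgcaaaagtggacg
cdc-48.1: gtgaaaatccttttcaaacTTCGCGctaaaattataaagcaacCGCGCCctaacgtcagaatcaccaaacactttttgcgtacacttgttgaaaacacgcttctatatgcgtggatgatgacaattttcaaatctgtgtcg
tag-115: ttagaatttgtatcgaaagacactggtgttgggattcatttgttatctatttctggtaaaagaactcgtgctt
The runs of efl-1 and Y39B6A.43 share the letters gcaaGCGCGCtccac. In drr-2 the share of A+T was 41.8%, and in Y55F3AR.2 it was 46.8%. The tag-115 run, which begins beside the end of rpl-12, held none of the marked words and was 65.8% A+T.

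The signal that the authors' lists give each region ranged over the members from 2.28 to 387 in the joint list, with a median of 76.3. Replicate 1 had signals from 26.2 to 232 (median 43.0) at these regions, and replicate 2 from 25.1 to 157 (median 38.9). Replicate 1 was the higher at 169 of the 255 members with a value in both, and replicate 2 at 86. The Spearman correlation between replicates over these 255 members was 0.47, which is across regions of the same libraries and describes members already chosen for ranking alike in both. Of the 258 members, 84 (32.6%, Wilson interval 27.1 to 38.5) overlapped a region in both replicates' own thresholded lists, 34 in that of replicate 1 alone, 38 in that of replicate 2 alone and 102 in neither. Over the whole conservative list 36.5% overlapped both. At 14 members a stronger summit lay within 250 bp. These had joint signals of at most 39.5, below every other member, and at 13 of them the joint signal was below that of the overlapping region in a replicate.

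**Figure D1:**
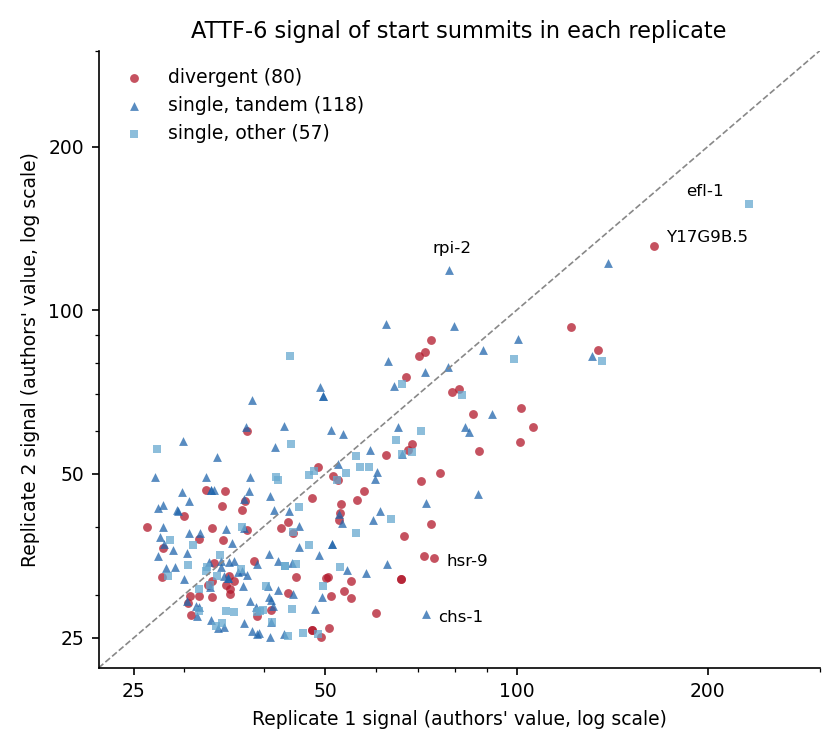
Signal of each member in replicate 1 (x axis) and replicate 2 (y axis), the authors' values on log scales, for divergent members (circles), single tandem members (triangles) and other single members (squares). Points near the dashed line of equality have like values, efl-1 stands highest in both replicates, and hsr-9 and chs-1 are higher in replicate 1.

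The strongest member lay upstream of efl-1, which encodes an E2F-family transcription factor. Its summit, on chromosome V at 16965856, was 181 bp upstream of the start and had a signal of 232 in replicate 1 and 157 in replicate 2 (joint 387). It was the highest member in both replicates. Next came the summit between Y17G9B.5 and rpl-20, a gene of the large ribosomal subunit, with 164 in replicate 1 and 131 in replicate 2. Y39B6A.43 followed with 139 and 122 in replicates 1 and 2, and cdc-48.1, which encodes an AAA ATPase that unfolds ubiquitinated proteins, with 136 and 80.5. All 4 overlapped both replicates' own lists, as did the other 21 of the 25 strongest members.

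Among the 5 strongest divergent members, the summit between Y55F3AR.2 and cct-8, a subunit of the cytosolic chaperonin, had a signal of 134 in replicate 1 and 84.4 in replicate 2. The summit between rpl-12, another large-subunit gene, and lin-54, which encodes the DNA-binding subunit of the DREAM complex, had 122 in replicate 1 and 93.3 in replicate 2. In both, replicate 1 was the higher. The summit between drr-2, related to a translation initiation factor, and set-16, a histone methyltransferase of the MLL kind, had 102 and 66.2 in replicates 1 and 2, and lay within 200 bp of both starts. The fifth, at tasp-1, which encodes a threonine aspartase, had 101.2 in replicate 1 and 57.2 in replicate 2. Further down the divergent list stood hsp-60 (mitochondrial chaperonin) facing Y22D7AL.10, tbb-1 (a beta-tubulin) facing rib-2 (heparan sulfate synthesis), the head-to-head heat-shock genes F44E5.4 and F44E5.5, and top-2 (topoisomerase II) facing npp-3 (a nucleoporin). Their joint signals were between 153 and 161.

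Of the single members, rpi-2 had 78.3 in replicate 1 and 119 in replicate 2, and is the 1 of the 8 strongest members at which replicate 2 was the higher. The summit at tag-115 had 131 and 82.5 in replicates 1 and 2, and that at ztf-28, a zinc-finger gene, had 99.1 and 81.4. agt-1, whose product repairs alkylated DNA, had 100 and 88.5 with its summit 31 bp inside the gene. xrn-2, a nuclear exoribonuclease, had 77.9 and 78.6 with its summit 1 bp from the start. Others among the 25 strongest were rla-1 (ribosomal stalk), D2096.7, kel-3, pck-2 (phosphoenolpyruvate carboxykinase), F42A6.6 and bag-1 (a chaperone cofactor), with joint signals from 150 to 187. R12E2.13 and oef-1, a germline factor of oogenesis, were divergent members with joint signals of 161 and 156.

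Divergent promoters carried more summits for their length than single ones, while the median signal of the summits differed little. Per Mb of start-proximal sequence there were 58.8 members at divergent promoters and 25.8 at single ones, a ratio of 2.28. In the list of replicate 1 alone the ratio was 3.51 and in that of replicate 2 it was 2.21. The median joint signal was 81.0 for the 80 divergent members and 74.7 for the 178 single members, a ratio of 1.08. Replicate 1 gave medians of 49.7 for divergent and 41.1 for single members, and replicate 2 gave 39.6 and 38.3. The signal ratio was 0.991 when only summits within 200 bp of both starts were called divergent, so no direction is drawn from it. A region in both replicates' own lists was found for 37.5% of divergent members (Wilson interval 27.7 to 48.5) and 30.3% of single members (24.1 to 37.4).

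Counted by gene, 268 of 16658 protein-coding genes that the rule could reach had a member summit within 200 bp of a start, a share of 1.61% over all genes. The list of replicate 1 alone gave 0.876% and that of replicate 2 gave 0.816%. For genes with a head-to-head partner the share was 105 of 3482, or 3.02% (Wilson interval 2.50 to 3.64), and for single genes it was 163 of 13176, or 1.24% (1.06 to 1.44), a ratio of 2.44. Replicate 1 gave 2.04% of divergent and 0.569% of single genes, and replicate 2 gave 1.35% and 0.675%. A summit between close starts can count for both genes, which it did at 21 members. The density per Mb above counts each summit once.

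In the joint list the share by gene was higher for starts up to 500 bp apart than for wider gaps. A summit within 200 bp of both starts counts for 2 genes, which only narrow gaps allow. The summits of each gap class were not counted. Where the starts overlapped, 3 of 75 genes had a summit (4%). Where the gap between the starts was 1 to 250 bp, 31 of 759 genes had a summit (4.08%), and where it was over 250 and up to 500 bp, 44 of 1053 did (4.18%). Gaps up to 750 bp gave 1.64% and gaps up to 1000 bp gave 1.76%, against 1.24% of single genes. For these wider gaps replicate 1 marked 11 of 913 and 8 of 682 genes (1.17% for the last), against 0.569% of single genes, and replicate 2 gave 0.767% and 1.03%, against 0.675%. The replicates parted in the closest class. There replicate 1 had a summit at 2.24% and replicate 2 at 0.527%, below its own share of 0.816% over all genes. For gaps over 250 and up to 500 bp replicate 1 gave 3.23% and replicate 2 gave 2.66%.

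Tandem genes had about as high a share as divergent ones, and genes with neither neighbour a low one. Of 3294 single genes with a same-strand gene end within 500 bp upstream, 114 had a member summit (3.46%, Wilson interval 2.89 to 4.14). Of the 9882 single genes without one, 49 did (0.496%, 0.375 to 0.655), a ratio of 6.98. The replicates' own lists gave 1.58% against 0.233% in replicate 1 and 1.97% against 0.243% in replicate 2. The share was 4.23% for gene gaps of 1 to 100 bp, 4.42% up to 200 bp, 3.50% up to 300 bp, 2.30% up to 400 bp and 1.47% up to 500 bp, each class starting where the one before ends. The replicates' own lists gave lower shares, from 1.98% to 0.629% in replicate 1 and from 2.61% to 1.05% in replicate 2, all above their shares for genes with no such neighbour. The median gap at the 119 tandem members was 123 bp.

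**Figure D2:**
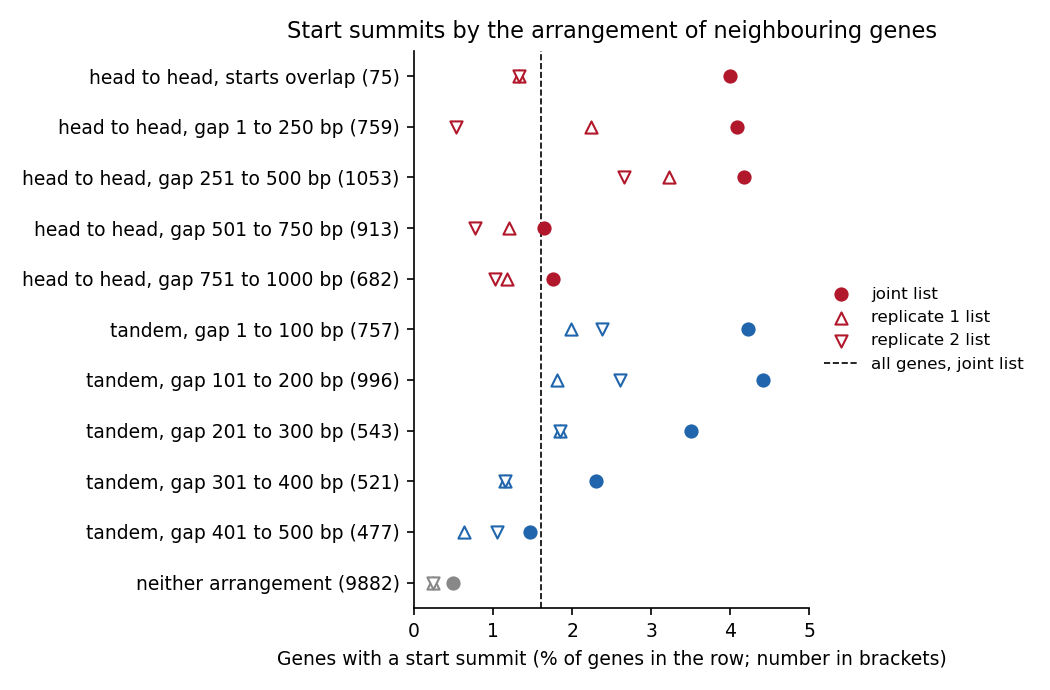
Share of genes with a start summit (x axis, percent) by the arrangement of neighbouring genes, with the number of genes in brackets, for head-to-head pairs by the gap between starts, tandem genes by the gap to the upstream gene's end, and genes with neither. Filled circles are the joint list, open triangles the replicates' own lists, and the dashed line is the 1.61% of all genes; the closest head-to-head and tandem classes lie to the right of it in the joint list and genes with neither arrangement at 0.496%.

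Among tandem genes, the highest share for any gene list of the upstream neighbour was behind cytosolic ribosomal protein genes. Of 27 such genes, 17 had a member summit (63%, Wilson interval 44.2 to 78.5), against 97 of the 3267 tandem genes behind any other gene (2.97%, 2.44 to 3.61). Replicate 1 alone gave 11 of the 27 (40.7%, against 1.25% behind other genes) and replicate 2 gave 16 (59.3%, against 1.5%). The ribosomal proteins' own starts had a summit at 5 of 62 genes (8.06%). The list of these genes does not hold rpl-36.A, by name a ribosomal protein gene. The member nbs-1, 67 bp behind rpl-36.A (joint signal 86.3), is therefore not among the 17 or the summits described next. Of genes facing a ribosomal protein gene head to head, 3 of 43 had a summit (6.98%, Wilson interval 2.40 to 18.6), against 102 of 3439 facing another gene (2.97%). No control chromatin and no measure of transcription was set against these values, so whether a precipitation without the tagged protein would give signal behind these genes was not measured. This comparison was made after the data had been seen, and the share of tandem genes behind a gene of each of the other lists is given with the lists below.

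These summits numbered 19 at 18 downstream genes, since R151.2 behind rpl-6 held a pair; tag-115 is outside the 27 genes counted because a short RNA gene lies within 500 bp of its start. They lay 3 to 329 bp past the end of the ribosomal protein gene, with a median of 129 bp, and 12 of the 19 were in both replicates' own lists. The strongest were those at tag-115 behind rpl-12, agt-1 behind rla-2 and xrn-2 behind rpl-43, given above. The summit at cyc-2.1, a cytochrome c gene 111 bp behind rpl-20, had 71.7 in replicate 1 and 77.0 in replicate 2. At ndab-2 behind rpl-36 the signal was 64.2 in replicate 1 and 72.4 in replicate 2, at pigk-1 behind rps-5 it was 86.8 and 45.8, and at swp-1 behind rpl-23 it was 66.0 and 54.3. Which replicate was the higher differed from gene to gene. Their mean A+T content was 57.3%, and 2 of the 19 held 1 of the 5 marked words. Since rpl-20 has a summit between its start and that of Y17G9B.5 and another behind its end, and rpl-12 likewise, both sides of those short genes carried a summit.

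Within the 200 bp that the rule allows, divergent members lay upstream more often. The median position of all 258 members was 41.5 bp upstream of the start (quartiles −129 and 31 bp), with 168 upstream and 90 downstream. Divergent members had a median of −93 bp and 69 of 80 were upstream, against a median of −22 bp and 99 of 178 for single members. Among single members, 65 of 119 tandem ones and 34 of 59 others were upstream. Of the 78 divergent members whose starts do not overlap, 68 lay between the starts. The median gap at divergent members was 406 bp, against 480 bp over all divergent genes. By annotation 64 of 80 divergent members were between genes and 4 in a coding exon, while of 178 single members 83 were between genes and 56 in a coding exon. Of the 119 tandem members, 60 lay between the end of the upstream gene and the start, 54 past the start and 5 inside the upstream gene.

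**Figure D3:**
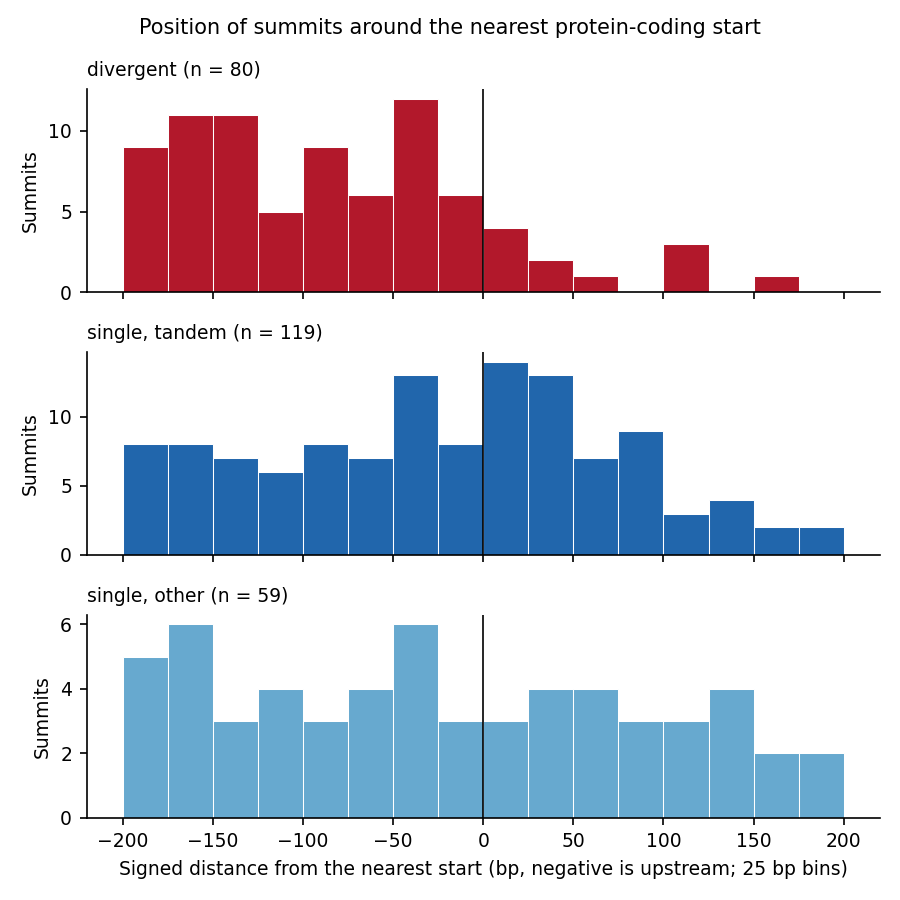
Number of members by signed distance from the nearest start in 25 bp bins (x axis, negative is upstream), for divergent, single tandem and other single members. Divergent members are mostly left of the start at 0 (69 of 80), whereas single members lie on both sides.

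The members just inside the 200 bp limit were C14B1.8, ztf-8 and sqst-1, each 198 bp from a start, with joint signals of 69.7, 75.9 and 69.2. Just outside it were inf-1, gyg-2 and rpn-3, the last at 202 bp, with 52.1, 118 and 77.3. The median joint signal was 76.3 for the members, against 88.6 for the 244 autosomal summits over 200 and up to 1000 bp upstream of a start. Both replicates' own lists held 32.6% of the members, against 39.8% of those.

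Member summits held more G and C than their flanks and than other starts, as did the summits of the list as a whole relative to their flanks. In a window reaching 50 bp to either side the members averaged 55.3% A+T (SD 8.54, n = 258), a difference of −5.26 percentage points from flanks centred 500 bp away (60.6%). Equal windows at all 24239 starts that the rule could reach averaged 66.2% A+T, 1.64 points above their flanks. The difference from the flanks was −7.74 points at divergent members (52.3% A+T) and −4.15 points at single members (56.7%), whereas divergent starts in general were 3.57 points above their flanks and single starts 1.22 points above. The summit was below its own flanks at 62 of 80 divergent and 115 of 178 single members. Below 50% A+T were 45% of divergent and 23.6% of single members, against 4% of all starts. Windows at starts are centred 42 bp upstream, where the median member lies. Members ran from −198 to 198 bp, so windows at starts, also those used for words below, are not matched to each member's position. The same difference was −6.22 points over the whole conservative list, −6.83 points at autosomal summits over 200 and up to 1000 bp upstream of a start, −12.4 points on X and −5.04 points in the piRNA cluster, so a lower A+T content at the summit is not particular to the members. Members in the list of replicate 1 averaged 54.1% A+T and those in the list of replicate 2 averaged 55.4%.

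The A+T content was higher on both sides of the summit. In windows of 51 bp, divergent members had 50.5% A+T at the summit, with 69.2% at 150 bp upstream and 66.8% at 100 bp downstream of it. Single members had 55.5% at the summit, 67.3% at 150 bp upstream and 62.7% at 125 bp downstream. Other starts had 66.6% at the matched position and their lowest value, 58.8%, 75 bp further downstream. Tandem members differed least from their flanks among the 3 classes, by −3.23 points in the wider window, and other single members by −6.0 points.

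**Figure D4:**
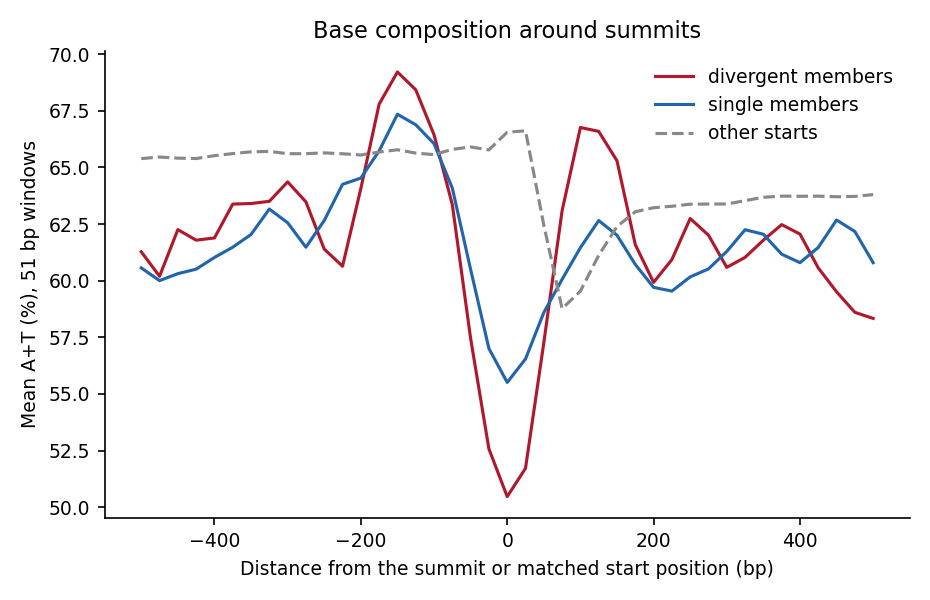
Mean A+T content (y axis, percent, 51 bp windows) by distance from the summit, in the direction of the gene, for divergent members, single members and other starts placed at the matched position. Divergent members dip to 50.5% and single members to 55.5% at the summit, while other starts have 66.6% there.

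The short words most over-represented at the summits were rich in G and C. Windows of equal composition were not compared, so how far composition accounts for the words was not tested. The 5 six-letter words with the largest excess over all starts, out of 2080 counted on both strands, all hold CGCG or its shifted form GCGC. The first, ACGCGC, was in 13.6% of member windows and 1.73% of windows at all starts, GCGCCA in 12.4% and 1.40%, GCGCAC in 12% and 1.5%, CGCGCC in 11.6% and 1.33%, and CGCGAA in 12.4% and 2.16%. At least 1 of them was in 51.2% of divergent and 29.2% of single members, 24.4% of tandem members and 39.0% of other single members, against 8.53% of the members' flanks and 6.39% of all starts. By replicate the share was 43.1% of members in the list of replicate 1 and 35.6% in that of replicate 2. The words were picked as the most over-represented, so these shares describe the members and are no test. Of the 244 summits over 200 and up to 1000 bp upstream of a start, 40.2% held one, and of those in the piRNA cluster, 14.8%. On X, where summits averaged 52.1% A+T, 18.2% held one, against 36.0% of all members.

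Of the other 11 words counted, on both strands, GCGCGC was in 9.69% of members, 1.36% of their flanks and 0.990% of all starts, CGCGAAA in 8.53%, 1.74% and 1.23%, and CCGCCC in 5.43%, 1.55% and 3.11%. The words of A and T alone were less frequent at members than at all starts, and differed less from the members' own flanks. AAAAAAAA was in 2.71% of members, 7.75% of their flanks and 14.2% of all starts, AAATTT in 15.1%, 17.1% and 26%, and AATTAA in 11.2%, 12.2% and 19%. ATATAT was in 2.33% of members, 3.88% of flanks and 5.96% of all starts, and TATAAA in 4.65%, 6.40% and 17.1%. TTTGAA was in 19.8% of members, 19.2% of flanks and 28.1% of all starts. TTTTCAG, the end of worm introns and of trans-splice acceptors, was in 8.91% of members, 16.1% of flanks and 20.7% of all starts, and GAGAGAGA in 0.775%, 0.581% and 1.43%. GCGCGC can overlap CGCGAAA, and AAATTT can overlap AATTAA. A match is a description of letters and not a shown binding site.

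Longer shared words were rarer. GCGCGAAA was in 14 members (5.43%) and 0.342% of all starts, at npp-3, chs-1, tba-2, scc-2, lin-9, eef-2 and mcm-4 among others. CGCTCCAC was in 12 members (4.65%, against 0.239%), which include efl-1, Y17G9B.5, Y39B6A.43, rpl-12 and mex-1. AAGTGCGC was in 11 (4.26%, against 0.289%), and 9 of these 11 were divergent. The longer word GCAAGCGCGC was in 8 members (3.10%, against 0.0866% of all starts), at efl-1, Y39B6A.43, Y53F4B.11, F48A11.4, atp-1, Y87G2A.18, Y48B6A.1 and mtr-4. These words were chosen as the most over-represented of their lengths.

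The genes with a member summit that a gene list held were spread over housekeeping and some germline functions. The lists of large sensory and environmental families held few. Of 29 gene lists, 17 had a share above the 1.61% of all genes, 4 had a lower one and 8 had no summit. The Wilson interval lay wholly above 1.61% for 10 of them and wholly below it for 2, and the others rest on 0 to 2 genes. Together the lists held 69 of 3612 genes with a summit (1.91%), close to the share of all genes, and 199 of the 268 genes were in none. The highest share was that of oocyte, eggshell and early embryo genes, 8 of 52 (15.4%, Wilson interval 8.01 to 27.5), with 4 in the list of each replicate, and was 5.77% with the limit of 100 bp. rme-2, the yolk receptor of oocytes, had a signal of 70.8 in replicate 1 and 59.9 in replicate 2. mex-1, an RNA-binding protein of the early embryo, had 68.6 and 54.9 in replicates 1 and 2. chs-1, the chitin synthase of the eggshell, had 72.0 in replicate 1 and 27.6 in replicate 2, and was in the own list of replicate 1 only. puf-7, par-5, car-1, egg-1 and mbk-2 completed the list, with joint signals from 58.1 to 93.9.

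Meiosis genes had a summit at 6 of 53 (11.3%, with 4 in the list of replicate 1 and 3 in that of replicate 2), but at 1.89% when a summit had to lie within 100 bp of a start, against 0.912% of all genes then. syp-5, syp-6 and syp-3 encode parts of the synaptonemal complex that joins paired chromosomes, coh-3 a meiotic cohesin, scc-2 the cohesin loader and dsb-2 a factor for meiotic DNA breaks. syp-5 had 63.4 in replicate 1 and 41.4 in replicate 2, and coh-3 had 52.9 and 44.1. The joint signals of the other 4 ran from 63.9 to 89.3. In the list of chromatin and DREAM genes, 4 of 48 (8.33%) had a summit, and beside efl-1 these were lin-9 and lin-52, both DREAM subunits, and sir-2.1, a deacetylase. lin-9 had 37 in replicate 1 and 39.9 in replicate 2, and lin-52 had 34.8 and 39.6, so both were far weaker than efl-1. lin-54 shares its divergent promoter with rpl-12, but the summit lay more than 200 bp from its start and it is not counted.

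Energy metabolism was the other group near the top. Of TCA cycle and glycolysis genes 5 of 34 had a summit (14.7%, 6.45 to 30.1, with 3 in the list of each replicate), and of respiratory chain and ATP synthase genes 6 of 45 (13.3%, 6.26 to 26.2, with 3 and 2 in the lists of replicates 1 and 2). pck-2 had 82.2 in replicate 1 and 69.7 in replicate 2, gpi-1 (glucose phosphate isomerase) had 58.8 and 55.4, and idh-1 (isocitrate dehydrogenase), aldo-2 (aldolase) and enol-1 (enolase) had joint signals of 87, 72.7 and 66.0. All 5 were single members. Among the 6 respiratory genes of the list, cyc-2.1 and cox-5B (cytochrome oxidase) had the highest signals. The list does not hold ndub-8, ndab-2 and nduc-2, by name NADH dehydrogenase genes, whose joint signals were 130, 120 and 81.7. Nor does it hold nduv-3, another by name, which is in reach of the mdf-2 summit (joint signal 63.2). The share of 13.3% leaves them out. cox-5B had 54 in replicate 1 and 50.1 in replicate 2. atp-1 (ATP synthase alpha subunit), nduf-11 (NADH dehydrogenase), cox-6B and atp-4 had joint signals from 56.4 to 88.0.

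In gene expression, RNA polymerase and general transcription had 6 of 75 (8%), with rpb-11 and ama-1 of RNA polymerase, mdt-17 and mdt-9 of Mediator and taf-9 and taf-11.2 of TFIID. rpb-11 had 44.1 in replicate 1 and 56.7 in replicate 2, and ama-1, the largest subunit, 32.9 and 31.3. Cytosolic ribosomal proteins had 5 of 62 (8.06%). The strong summit at rla-1 is not among the 5, since a short RNA gene lies within 500 bp of its start. rpl-12 was the strongest of the 5 by joint signal (215), rpl-27 had 65.0 and 60.9 in replicates 1 and 2, and rps-16 had 43.0 and 61.3. Translation factors had 3 of 41 (iff-2, eef-2 and ife-1, 7.32%, none in the list of replicate 1 and 2 in that of replicate 2) and aminoacyl-tRNA synthetases 2 of 31 (vars-1 and ears-2, 6.45%). The spliceosome list had 2 of 66, swp-1 and snrp-200 (3.03%).

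DNA replication and cell cycle genes had 4 of 70 (5.71%), namely rfc-4 (clamp loader), rnr-1 (ribonucleotide reductase), mcm-4 (replicative helicase) and cyb-1 (a B-type cyclin), with joint signals from 44.6 to 67.3. The list of replicate 1 alone marked 1 gene of this list and that of replicate 2 none. cdc-48.1, which the list also holds, is outside the 70 because a short RNA gene lies within 500 bp of its start. Centromere and centriole genes had 2 of 40 (mdf-2 and spd-5), germline small RNA and P granule genes 2 of 59 (pid-5 and glh-2), chaperones 2 of 64 (cct-1 and hsp-1), proteasome and ubiquitin 2 of 69 (csn-6 and rpn-10), and nuclear pore 1 of 45 (npp-3). The chaperone list does not hold the heat-shock gene F44E5.4, a member with a joint signal of 158. Histones had 2 of 75, hil-4 and his-68, which faces his-67; this pair is nearly identical to other histone genes, so where its reads belong is uncertain. Vesicle traffic had 1 of 93 (sec-24.2).

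At the low end, chemoreceptors had 4 of 1284 (0.312%, Wilson interval 0.121 to 0.798), nuclear hormone receptors 1 of 243 (nhr-47, 0.412%) and neuronal genes 1 of 133 (unc-25, the GABA-synthesising enzyme, 0.752%). The chemoreceptor list takes genes by the start of their names and can hold genes of other kinds, and srw-95 was its strongest call, with 37 in replicate 1 and 33.1 in replicate 2. Neither replicate's own list held any of the 4. No summit was found at 391 F-box, MATH and BTB genes (a share of up to 0.973% by the Wilson interval), 228 C-type lectin genes, 145 cuticle collagens, 65 mitochondrial ribosomal protein genes, 47 major sperm protein genes, 30 muscle and 30 vitellogenin and intestine genes or 3 AT-hook protein genes. Only for the F-box, MATH and BTB genes does the interval lie below the 1.61% of all genes. For the other 7 lists it reaches from 1.66% (C-type lectins) to 56.1% (AT-hook proteins), so their 0 says little.

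**Figure D5:**
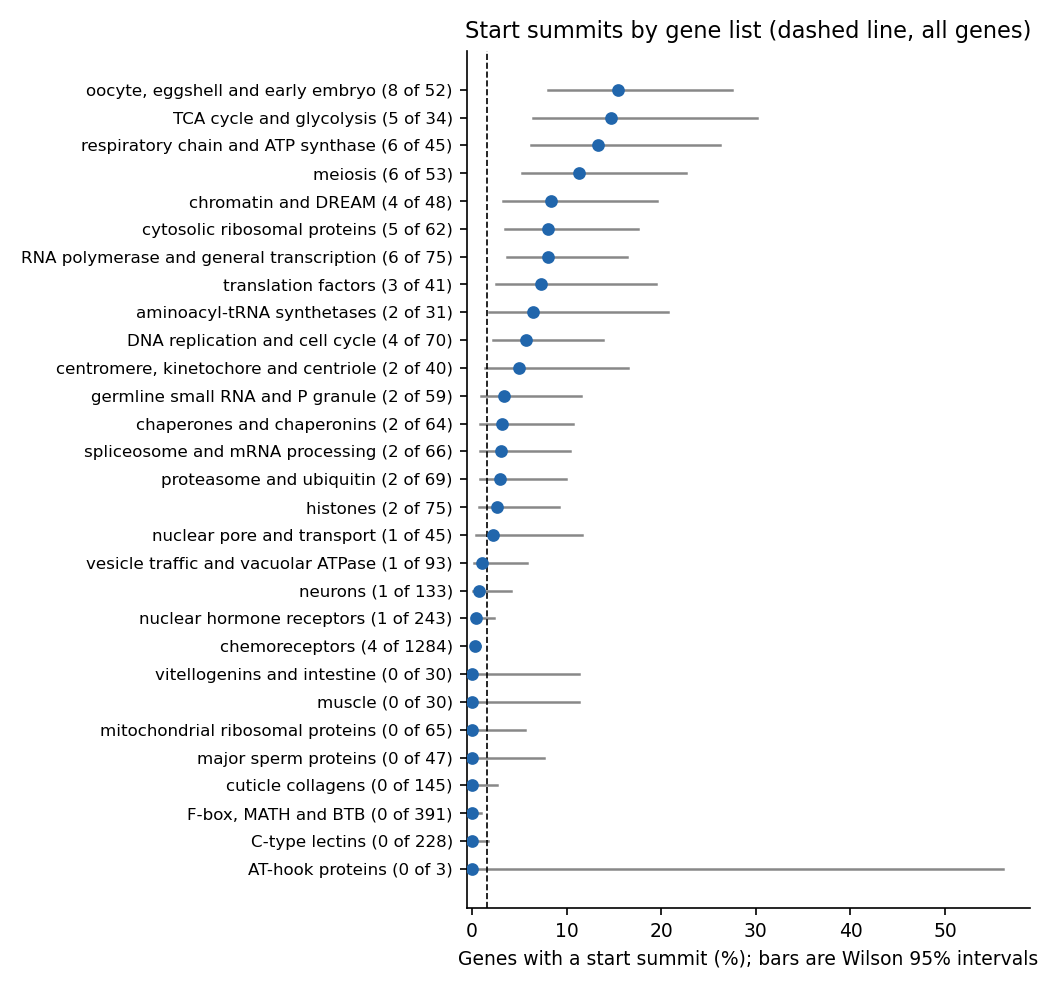
Share of genes with a start summit (x axis, percent) in each of the 29 gene lists, with counts in brackets; bars are Wilson 95% intervals and the dashed line is the 1.61% of all genes. Oocyte, metabolic and meiosis lists lie highest, at 11.3% to 15.4%, and 8 lists are at 0.

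Among tandem genes sorted by the list of the upstream gene, the 63% behind ribosomal protein genes was followed by 28.6% behind oocyte and embryo genes (2 of 7), 13.6% behind chaperone genes (3 of 22), 13.0% behind proteasome genes (3 of 23) and 11.1% behind respiratory genes (2 of 18), against 3.46% of all 3294 tandem genes. Behind the 25 mitochondrial ribosomal protein genes there were 2 (8%), and behind the 22 translation factor genes 1. Those lists are short and each rests on 3 genes or fewer, and the list of replicate 1 held none behind chaperone or respiratory genes. By chromosome, the share of genes with a member summit was 2.00% on I, 1.05% on II, 1.87% on III, 2.53% on IV and 1.11% on V, and the median joint signal was between 74.6 and 78.9 on each. On IV, 10 of the 65 members lay in the left piRNA region. The share of all starts of IV in that region was not counted, so no excess is read from this. A miRNA gene start lay within 500 bp of 4 members (1.55%), against 0.231% of all starts. With so few members, and without a count of distinct miRNA genes or of each replicate's list, no excess is read from this. For other RNA classes the share of members was not above that of all starts. Unclassified ncRNA genes lay near 5.04% of members and 5.41% of all starts, piRNA genes near 0.775% and 2.32%, and pseudogenes near 0.388% and 0.850%.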

How the data were processed

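The authors deposited peak lists on ce11 for 2 biological replicates, per the labels. For the aligner, the peak caller and the read depth nothing is given in the sources used here. Signal, whole-number score and −log10 columns (q values and the irreproducible discovery rate, IDR) are the authors' own deposited values. Every region of the thresholded lists has a global IDR of 0.01 or less. Signal was used only to describe and rank regions within a list. A replicate's signal is that of the overlapping region in its own ranked list. Summits were counted from 1 and set against Ensembl release 115. Genes were counted if they have a start on the autosomes outside the cluster and no tRNA, snRNA or snoRNA gene start within 500 bp of it. Overlap needed at least 1 bp. Words and A+T content were read in windows reaching 50 bp to either side of the summit with Python 3.11.15 and NumPy 2.4.6, and the scripts were tested on simulated data. Named genes are those of the 25 strongest members, up to 4 per gene list by signal, the 5 strongest of each class and the 3 nearest to the limit on either side; other genes are named to complete small counts, after their values were seen. The members and lists were chosen with earlier results of these data known. Alternatives are described below. A gene within 1 of the lists is not reported here by name.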

Additional observations from a re-analysis of the deposited data

How the results depend on the processing

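Depth is unknown, no control was set against the regions, and intervals cover counting error only. Leaving out summits within 250 bp of a stronger one, keeping only members in both own lists, and the tandem result were chosen after seeing the data. No paired analysis was possible because there is 1 group. The ratios between gene arrangements kept their direction in every setting tried, and that of median signal did not. The number of members was 150 with a start window of 100 bp, 105 at a global IDR of 0.001, 132 to 137 from 1 replicate's list and 84 in both own lists. The divergent share of members was 30.3% to 40.9% from 1 replicate, 20.9% and 49.2% with gaps of at most 500 and 2000 bp, and 8.14% with both starts within 200 bp. The ratio of divergent over single genes was 2.00 to 3.58 from 1 replicate. The ratio of median signal was 1.04 at 100 bp, 1.12 at an IDR of 0.001, 1.03 to 1.07 from 1 replicate's list, 1.21 and 1.03 by the ranked signals of replicates 1 and 2, 1.14 in both own lists, and turned to 0.991 with both starts within 200 bp. The median position was −13 and −76 bp with windows of 100 and 300 bp and −60 to −42.5 bp from 1 replicate. A+T minus flanks was −6.46 points in windows of 51 bp and −1.72 in windows reaching 100 bp to either side. Lists above the share of all genes numbered 11 at an IDR of 0.001, where 76.2% of members were in both own lists. Beside these, 40 values for single lists or words moved. At that IDR translation factors, aminoacyl-tRNA synthetases, DNA replication, centromere, P granule and proteasome genes had no summit, against 0.618% of all genes, and oocyte genes had 5.77%. With a start window of 100 bp meiosis genes had 1.89%, oocyte genes 5.77% and chaperone and nuclear pore genes none, against 0.912% of all genes. The share of windows with AAAAAAAA over that at all starts was 0.191, and 0.515 in windows reaching 100 bp to either side. Tandem over other single genes gave 8.67 and 4.67 with windows of 100 and 300 bp, 8.35 with first starts only, 5.69 and 4.90 with gene ends within 200 and 1000 bp, and 6.78 to 8.12 from 1 replicate. The causes were not tested.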
